A study of Mus musculus with 2 samples.

Results

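The genes described here encode the translation initiation factors, the proteins that bring the initiator tRNA, the mRNA cap and the ribosomal subunits together at a start codon. They were chosen by name, as protein-coding mouse genes whose symbol begins with Eif followed by a digit from 1 to 6. The kinases Eif2ak1 to Eif2ak4, the Y-linked Eif2s3y and pseudogenes were left out. That gave 51 of the 17216 genes listed in the series, of which 48 averaged 1 FPKM or more over the 2 libraries (FPKM is the authors' count of fragments per kilobase of transcript, relative to the size of the library). The study sequenced RNA from mouse bone marrow cells sorted with the gate of long-term haematopoietic stem cells (Lin–, Sca-1+, c-Kit+, CD48–, CD150+). There was 1 library from Ccp3-/- mice of the C57BL/6 strain, which are deficient in the cytosolic carboxypeptidase CCP3, and 1 library from wild type littermates of the same strain. The labels used here do not give the age or sex of the animals, how many were pooled or what was deleted in the gene. With 1 library per genotype no test was possible, and every difference compares these 2 libraries and not the genotypes.

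In initiation, eIF1, eIF1A and eIF3 prepare the small ribosomal subunit, and eIF2 delivers the initiator tRNA together with GTP. The cap-binding complex of eIF4E, eIF4G and the helicase eIF4A recruits the mRNA, which the small subunit scans until it meets a start codon. eIF5 then promotes GTP hydrolysis, eIF5B joins the large subunit, and eIF2B reloads eIF2 with GTP. Blood stem cells are known for a low rate of protein synthesis, which rises in the progenitors they form.

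Agbl3, the gene of CCP3, was listed at 0.66 FPKM in the library labelled as knockout and 1.11 FPKM in the wild type library, from about 15 and 23 reads. The ratio was 0.595 (approximate 95% counting interval 0.289 to 1.19), so the counted transcript did not check the genotype label, and the library is called knockout-labelled. Spacing of low FPKM values gave depths of about 14.2 and 15.3 M reads for the knockout-labelled and the wild type library. Intervals on ratios below are exact conditional 95% intervals from reads estimated with that spacing; they cover counting error only. The gate excluded CD48, yet Cd48 RNA stood at 114 FPKM in the knockout-labelled and 136 FPKM in the wild type library, against 3.40 and 2.14 FPKM for Slamf1, the gene of CD150, so the RNA went against the gate for CD48. All 16 stem cell markers examined were listed in both libraries, and none was at 0. They summed to 261 FPKM in the knockout-labelled and 332 FPKM in the wild type library. The 7 progenitor markers examined, Cd48 among them, summed to 5211 and 3660 FPKM. Of these 7, 2 were at least 1.5-fold higher in the knockout-labelled library (Mpo and Ctsg, also neutrophil markers), where 6.11% of all genes were. Another 2 were lower by that much (Flt3 and Dntt), where 6.13% were. Of 16 neutrophil markers 11 were at least 1.5-fold higher in the knockout-labelled library, where 6.11% of all genes averaging 1 FPKM or more were. Their summed levels were 12189 and 8728 FPKM in the knockout-labelled and the wild type library. All 11 B cell markers that averaged 1 FPKM or more were lower by at least 1.5-fold (sums 66.6 and 154 FPKM), where 6.13% of all genes were. Lower by that much were also 8 of 11 dendritic cell markers (335 and 571 FPKM) and 7 of 10 erythroid markers (449.9 and 1502 FPKM). No marker of these lists was at 0 in either library. The part of these cell types in the initiation factor values was not tested, and fewer cells of a type and less RNA per cell cannot be told apart in bulk RNA.

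Initiation factor transcripts did not move in one direction between the libraries. Eif3a and Eif2s3x, for subunits of eIF3 and eIF2, were at least 1.5-fold higher in the knockout-labelled library, and Eif1 and the eIF3 subunit genes Eif3i and Eif3k were at least 1.5-fold lower. The difference of a gene was taken as log2(FPKM + 1) in the knockout-labelled minus that in the wild type library, a scale that understates changes of low genes. Over the 48 members that averaged 1 FPKM or more the median difference was 0.04, with a range of −0.72 to 0.76, against a median of 0.01 over all 11985 genes at that level. Above 0 were 26 members, where 50.8% of all genes were, and below 0 were 22, where 49% of all genes were. Of these members 3 were at least 1.5-fold lower in the knockout-labelled library, where 6.13% of all genes were, and 2 were at least 1.5-fold higher, where 6.11% of all genes were. None was 2-fold lower or higher, against 1.55% and 1.21% of all genes. These shares were near or under those of all genes, so the counts are no result about the family. Of the 5 genes past 1.5-fold, Eif2s3x was past it in every setting that kept it apart from its Y-linked copy Eif2s3y. Summed with that copy it was not, at a difference of 0.05. Eif1 and Eif3i were not past it with equal FPKM sums or after centring on length, nor was Eif3k in those or with a pseudocount of 5 FPKM or centring on GC content, nor was Eif3a with equal upper quartiles or either centring. The counting interval of the ratio lay over 1 for 22 members and under 1 for 16, where 31.3% and 27.2% of all genes did, and it held 1 for the other 10. Summed over all 51 members the family stood at 5909.6 FPKM in the knockout-labelled and 6200 FPKM in the wild type library, which was 1.17% and 1.07% of the FPKM sum of each library.

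**Figure D1:**
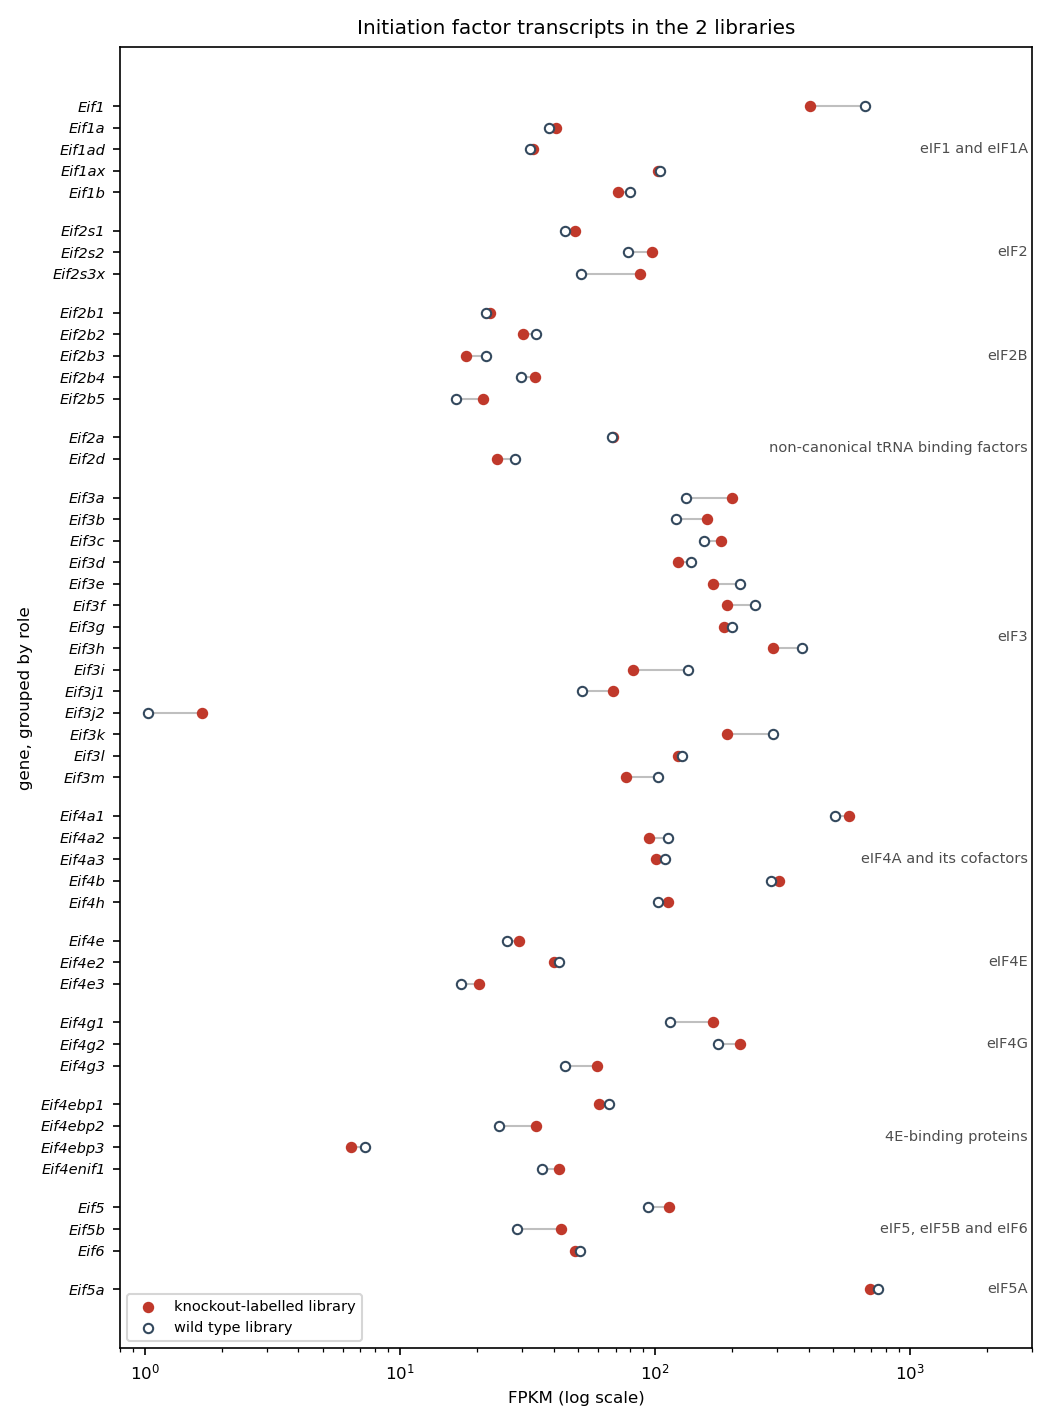
FPKM (log axis) of the 48 initiation factor genes that averaged 1 FPKM or more, 1 row per gene grouped by role, with filled points for the knockout-labelled library and open points for the wild type library (1 library each, no error bars). Levels run from 1.67 and 1.03 FPKM for Eif3j2 to 696 and 747 FPKM for Eif5a in the knockout-labelled and the wild type library, and neighbouring genes of 1 complex lie apart in both directions.

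The factors that hold the small subunit ready to scan were led by Eif1, whose protein guards start codon choice. Eif1 was listed at 403 FPKM in the knockout-labelled library and 666 FPKM in the wild type library, the lowest difference of the family (−0.72), with a ratio of 0.606 (0.588 to 0.623). Its paralog Eif1b stood at 71.9 and 79.9 FPKM in the knockout-labelled and the wild type library, a ratio of 0.900 (0.823 to 0.984). Eif1b thus made up 15.1% of the pair's FPKM in the knockout-labelled library and 10.7% in the wild type library. The genes of eIF1A, the partner of eIF1 on the small subunit, were close between the libraries. Eif1ax, which is X-linked, was listed at 102 FPKM in the knockout-labelled and 105 FPKM in the wild type library, and Eif1a at 40.8 and 38.3 FPKM, so the pair summed to 143 FPKM in each. Eif1ad, which encodes a protein with an eIF1A domain, stood at 33.1 and 32.3 FPKM. The counting intervals of Eif1a, Eif1ax and Eif1ad all held 1.

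All 3 subunit genes of eIF2, the carrier of the initiator tRNA, were higher in the knockout-labelled library, in every setting tried, except that Eif2s1 fell below 0 (−0.03) after centring on genes of similar GC content. Eif2s1, the gene of the alpha subunit that stress kinases phosphorylate, was listed at 48.6 FPKM in the knockout-labelled and 44.5 FPKM in the wild type library. Eif2s2, for the beta subunit, stood at 96.9 and 78.5 FPKM, a ratio of 1.23 (1.17 to 1.30). Eif2s3x, on the X chromosome, encodes the gamma subunit that binds GTP and the tRNA. It was listed at 87.3 FPKM in the knockout-labelled library and 51.1 FPKM in the wild type library, a ratio of 1.71 (1.63 to 1.79) and the highest difference of the family (0.76).

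Eif2s3x has a Y-linked copy that encodes nearly the same protein, and the 2 copies differed in opposite directions. Eif2s3y was listed at 11.5 FPKM in the knockout-labelled and 44.6 FPKM in the wild type library, a ratio of 0.259 (0.227 to 0.295). It made up 11.7% of the FPKM of the 2 copies in the knockout-labelled library and 46.6% in the wild type library. Summed, the copies stood at 98.8 and 95.7 FPKM in the knockout-labelled and the wild type library, a ratio of 1.03 (0.990 to 1.08) whose interval held 1. The sum for the gamma subunit therefore differed less between the libraries than either copy did. Reads may be split between such similar copies, so each copy alone is uncertain. Xist, which coats the inactive X chromosome, stood at 44.2 FPKM in the knockout-labelled and 5.38 FPKM in the wild type library. All 4 Y-linked genes examined, Eif2s3y among them, were at least 1.5-fold lower in the knockout-labelled library, where 6.13% of all genes were. The part of the sexes of the animals in the Eif2s3x value was not tested.

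**Figure D2:**
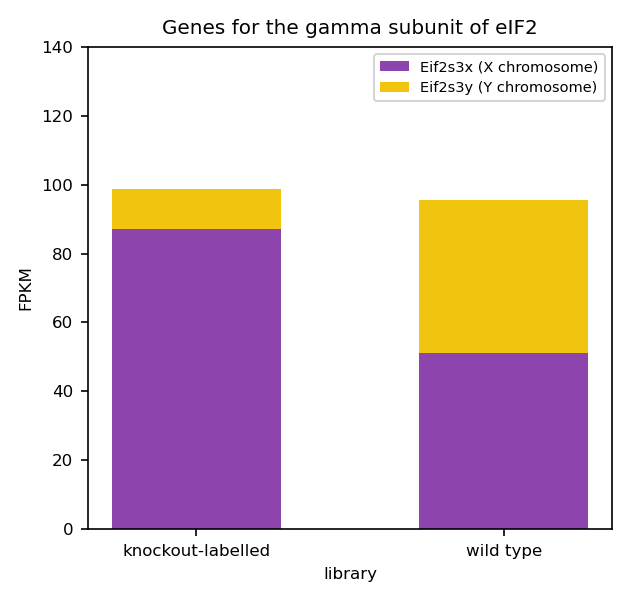
Stacked bars of FPKM (linear axis from 0) for Eif2s3x and Eif2s3y in the knockout-labelled and the wild type library, 1 library each. The Y-linked part is 11.5 FPKM in the knockout-labelled and 44.6 FPKM in the wild type library, while the full bars reach 98.8 and 95.7 FPKM.

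The 5 subunit genes of eIF2B, the exchange factor of eIF2, stayed within 1.5-fold, with a median of 0.05. Eif2b5, whose product is the catalytic epsilon subunit, was listed at 21.2 FPKM in the knockout-labelled and 16.6 FPKM in the wild type library, a ratio of 1.28 (1.15 to 1.42). Eif2b3, for the gamma subunit, stood at 18.1 and 21.8 FPKM, a ratio of 0.828 (0.727 to 0.945). Eif2b4 was the most abundant subunit gene in the knockout-labelled library (33.8 FPKM, against 30.0 FPKM in the wild type library), and Eif2b2 in the wild type library (30.5 FPKM in the knockout-labelled library, against 34.0 FPKM). Eif2b1 was listed at 22.6 FPKM in the knockout-labelled library and 21.8 FPKM in the wild type library. Subunits of this complex thus lay on both sides of 1. Of the factors that can bring tRNA without eIF2, Eif2a stood at 68.1 FPKM in the knockout-labelled and 68.0 FPKM in the wild type library and Eif2d at 24.0 and 28.2 FPKM.

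The genes of eIF3, the multi-subunit scaffold on the small ribosomal subunit, held the widest spread. Of 14 genes 9 were lower and 5 higher in the knockout-labelled library, and their median was −0.14, which became 0.05, with 6 lower and 8 higher, once the libraries had been set to equal FPKM sums. Eif3a, whose product is the largest subunit, was listed at 201 FPKM in the knockout-labelled and 132 FPKM in the wild type library, a ratio of 1.52 (1.49 to 1.56). Eif3b, which encodes a subunit of the module at the mRNA entry side, stood at 159 and 120.2 FPKM, with a ratio of 1.33 (1.28 to 1.37). Eif3c was listed at 181 FPKM in the knockout-labelled and 156 FPKM in the wild type library. These 3 genes encode the biggest eIF3 proteins. Eif3j1, for the loosely bound subunit j, stood at 68.4 and 51.6 FPKM, a ratio of 1.33 (1.25 to 1.41), and its near-identical copy Eif3j2 was listed at 1.67 and 1.03 FPKM, a ratio of 1.62 (1.05 to 2.50) from few reads.

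On the other side stood the genes of smaller eIF3 subunits. Eif3i, for a subunit that binds eIF3b, was listed at 81.8 FPKM in the knockout-labelled and 134 FPKM in the wild type library, a ratio of 0.610 (0.569 to 0.654). Eif3k stood at 192 and 289 FPKM, a ratio of 0.664 (0.630 to 0.700), and lay just past 1.5-fold with a difference of −0.59, where the limit is −0.585. The Eif3a to Eif3i ratio of FPKM was 2.45 in the knockout-labelled library and 0.980 in the wild type library. A further 4 genes lay between −0.40 and −0.34. Of these Eif3h, for a subunit with an MPN domain, was the most abundant eIF3 gene, at 290.1 FPKM in the knockout-labelled and 377 FPKM in the wild type library, a ratio of 0.770 (0.743 to 0.799). Its MPN partner Eif3f stood at 192 and 247 FPKM, and Eif3e and Eif3m, for subunits of the same core, at 169 and 214 FPKM and at 77.1 and 102 FPKM. All 4 stayed below 0 in every setting. Eif3d, whose product can bind the cap, was listed at 123 FPKM in the knockout-labelled and 139 FPKM in the wild type library, Eif3g at 186 and 201 FPKM and Eif3l at 123 and 128 FPKM, and these 3 turned above 0 with equal FPKM sums, as Eif3g and Eif3l did after centring on length.

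**Figure D3:**
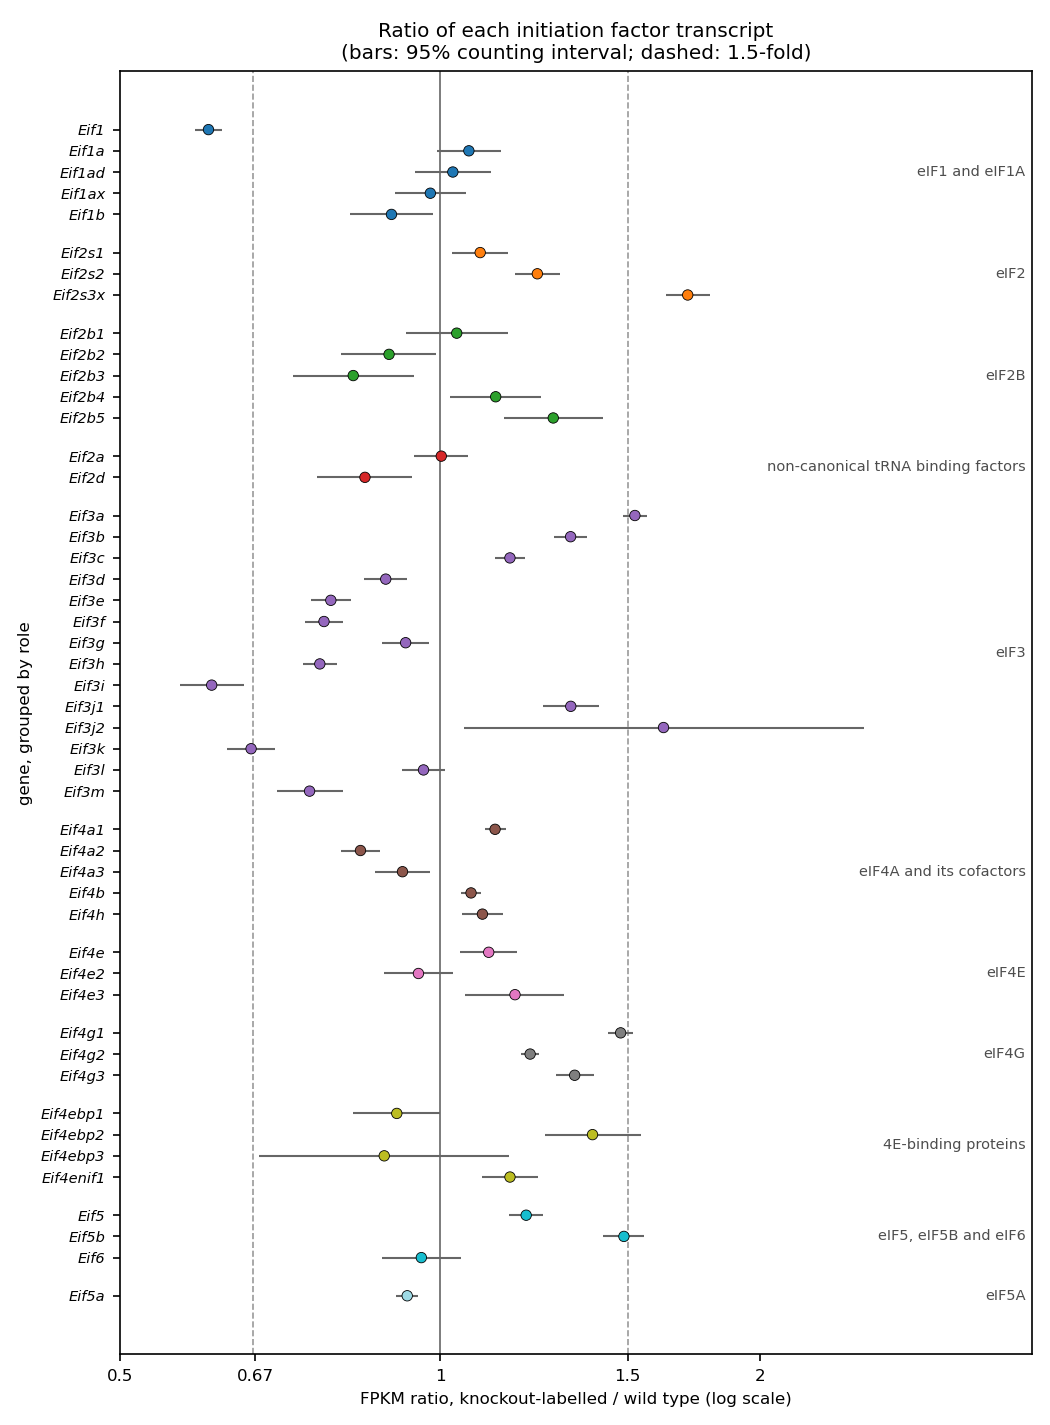
Ratio of FPKM, knockout-labelled over wild type (log axis), for the same 48 genes grouped by role, with bars for the approximate 95% counting interval and dashed lines at 1.5-fold in each direction. Eif1, Eif3i and Eif3k sit at 0.606, 0.610 and 0.664, and Eif3a and Eif2s3x at 1.52 and 1.71.

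The helicase eIF4A unwinds the leader of the mRNA, and its main gene Eif4a1 was listed at 573 FPKM in the knockout-labelled and 509 FPKM in the wild type library, a ratio of 1.13 (1.10 to 1.15). Its paralog Eif4a2 went the other way, at 94.5 and 112 FPKM, a ratio of 0.841 (0.807 to 0.877). The Eif4a1 to Eif4a2 ratio of FPKM was 6.07 in the knockout-labelled library and 4.54 in the wild type library. Eif4a3, whose product belongs to the exon junction complex, stood at 100.5 FPKM in the knockout-labelled and 109 FPKM in the wild type library. The genes of the helicase cofactors were close, with Eif4b at 305 and 286 FPKM and Eif4h at 112 and 102 FPKM. Eif4a3l1, a copy named for its likeness to Eif4a3, was not listed in the knockout-labelled library and stood at 0.05 FPKM in the wild type library.

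All 3 eIF4G genes were higher in the knockout-labelled library, except that Eif4g2 stood at −0.01 after centring on genes of similar length; their median was 0.41. Eif4g1, the main scaffold that joins eIF4E, eIF4A and eIF3, was listed at 169 FPKM in the knockout-labelled and 114 FPKM in the wild type library, a ratio of 1.48 (1.44 to 1.52). Eif4g3 stood at 59.3 and 44.3 FPKM, a ratio of 1.34 (1.28 to 1.39). Eif4g2, whose product lacks the eIF4E binding site, stood at 214 and 176 FPKM, a ratio of 1.21 (1.19 to 1.24). The cap-binding genes stayed within 1.5-fold. Eif4e was listed at 29.2 FPKM in the knockout-labelled and 26.3 FPKM in the wild type library, Eif4e2, for a cap-binding repressor, at 40.1 and 42.1 FPKM, and Eif4e3 at 20.4 and 17.4 FPKM, a ratio of 1.18 (1.06 to 1.31) close to that of Eif4g2. The Eif4g1 to Eif4e ratio of FPKM was 5.78 in the knockout-labelled and 4.34 in the wild type library. Eif4e1b, known from germ cells, was listed at 0.45 FPKM in the knockout-labelled library and 0.30 FPKM in the wild type library.

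The 4E-binding proteins hold eIF4E away from eIF4G until mTOR phosphorylates them. Eif4ebp2 was listed at 34.1 FPKM in the knockout-labelled and 24.5 FPKM in the wild type library, a ratio of 1.39 (1.26 to 1.54). Eif4ebp1, the most abundant of them, stood at 60.2 and 66.2 FPKM, a ratio of 0.910 whose interval held 1, and Eif4ebp3 at 6.44 and 7.27 FPKM. The 3 genes summed to 101 FPKM in the knockout-labelled and 98.0 FPKM in the wild type library, with Eif4ebp2 making up 33.9% and 25.1% of the sum. The makeup of the group differed more than its sum. Eif4enif1, whose product carries eIF4E into the nucleus, stood at 41.9 and 36.0 FPKM.

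Among the factors that act once the start codon is met, Eif5b, which encodes the GTPase of subunit joining, was listed at 42.7 FPKM in the knockout-labelled and 28.7 FPKM in the wild type library. Its ratio was 1.49 (1.42 to 1.56), and with Eif4g1 it lay just under 1.5-fold, at differences of 0.56 for each. Eif5 stood at 113 and 93.7 FPKM, a ratio of 1.20 (1.16 to 1.25). Eif6, which keeps the large subunit from joining too early, stood at 48.6 FPKM in the knockout-labelled and 50.6 FPKM in the wild type library, and its interval held 1. Eif5a, named as an initiation factor but known to act in elongation, was the most abundant member in both libraries, at 696 and 747 FPKM, a ratio of 0.931 (0.909 to 0.953). Its paralog Eif5a2 was listed at 0.81 and 0.61 FPKM.

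The direction of the members went with transcript length. Over the 48 members the Spearman correlation of the difference with length was 0.75, and over the 14 eIF3 genes it was 0.88, against 0.43 over all 11985 genes. These are correlations across genes of the same 2 libraries, whose depth they share, and genes are not independent replicates. All 13 members under 1500 bases were below 0 (median −0.15), where 74.8% of 2499 other genes of that length were (median −0.23). Of 12 members over 3000 bases 11 were above 0 (median 0.27), where 3573 of 5125 other genes were (median 0.15), and the exception was Eif4a2. Of 23 members between these lengths 15 were above 0 (median 0.09; other genes −0.05). Without the class under 1500 bases the correlation over the members was 0.62, and without the class over 3000 bases it was 0.71.

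To set members beside genes of like length, the median over the 200 genes outside the family that were nearest to it in length was subtracted from each member. Eif2s3x, at 0.70, was then the 1 member still at least 1.5-fold higher, where 5% of all genes were, and no member was at least 1.5-fold lower, where 4.45% were. The eIF3 genes were then 7 above and 7 below 0, with a median of −0.02 and none past 1.5-fold. Eif3a stood at 0.42, Eif3j1 at 0.41 and Eif3b at 0.39, with Eif3i at −0.47 and Eif3k at −0.30. Eif1 stood at −0.54 and Eif4ebp2 at 0.57 on that scale. The part of length, and of any cause that moves with it, in these values was not tested.

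**Figure D4:**
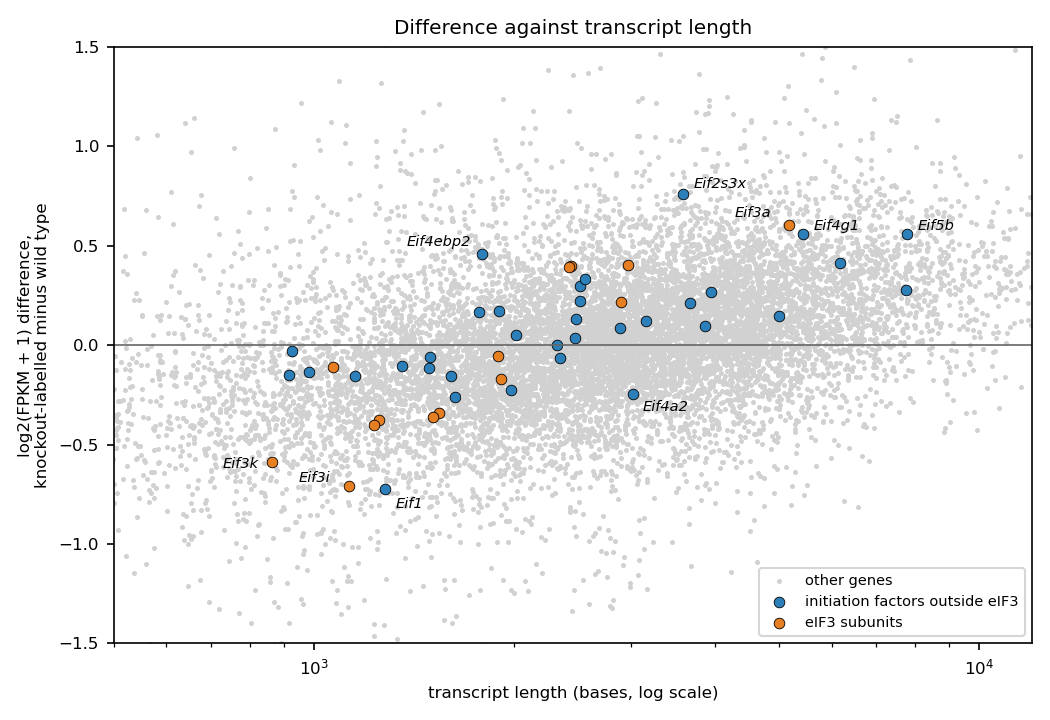
Difference in log2(FPKM + 1), knockout-labelled minus wild type, against transcript length (bases, log axis), for eIF3 subunit genes, other initiation factor genes and all other genes averaging 1 FPKM or more (grey; 400 of 11937 grey points lie outside the axes). Members under 1500 bases lie below 0 and those over 3000 bases above it, apart from Eif4a2.

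Genes of the cytosolic ribosomal proteins, the other large set of translation genes, lay on 1 side before centring on length. All 73 of them were lower in the knockout-labelled library, where 49% of all genes were. At least 1.5-fold lower were 29, where 6.13% of all genes were, and their median was −0.54. Their median length was 710 bases, and 74.8% of genes under 1500 bases outside the initiation factors were below 0. After centring on length 66 were below 0 and 7 above, with a median of −0.26. On that scale 2 were at least 1.5-fold lower, where 4.45% of all genes were. The matching length-centred median over the initiation factors was 0.08. With 1 library per genotype the difference between the families could not be tested. Many ribosomal protein mRNAs, and those of some initiation factors, begin with a 5′ terminal oligopyrimidine tract, a run of C and T at the transcription start through which mTOR and LARP1 control translation. RefSeq start sites on the mouse build GRCm38.p6 were found for 39 of the 51 members. The 30 bases around the start (15 before and 15 after) are shown for members at the ends of the range and for those with the longest runs, with a C and T run of at least 8 letters that touches the 5 bases on either side of the start in capitals. For Eif2b5 the run begins before the window.
Eif1 (chr11:100319934-100319963, + strand): gcgctggcgtcacaggggcggctatataag
Eif3k (chr7:28981874-28981903, - strand): aaaacaaccggcgctggtgctgaaagcgcc
Eif3f (chr7:108934400-108934429, + strand): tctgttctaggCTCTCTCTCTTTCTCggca
Eif2b5 (chr16:20498802-20498831, + strand): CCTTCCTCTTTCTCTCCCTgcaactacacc
Eif4g1 (chr16:20672712-20672741, + strand): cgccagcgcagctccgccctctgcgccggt
Eif3a (chr19:60790679-60790708, - strand): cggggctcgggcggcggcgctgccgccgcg
Eif2s3x (chrX:94212637-94212666, - strand): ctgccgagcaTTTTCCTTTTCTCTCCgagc

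Such a run was present at 6 of 37 members that averaged 1 FPKM or more and had a start site (16.2%), at 21 of 54 ribosomal protein genes (38.9%) and at 1159 of 9512 genes in all (12.2%), read on the annotated strand. Of 51 start-site entries of the members, 45 had bases shortly after the start in sense in a transcript of the gene. The strand of the other genes was not checked. The members with a run lay on both sides of 0 and were Eif2b5, Eif2s3x, Eif3f, Eif3l, Eif4e and Eif4enif1. A gene was counted if any of its start sites had a run. For Eif4e and Eif4enif1 the runs ended before the start, so they lay outside the transcript that begins there. They were also found at only some of the start sites of these genes. Eif3f, with 15 letters, had a difference of −0.36, while Eif2s3x, with 16, had 0.76 and Eif2b5, with 21, had 0.34. Of the members shown without a run Eif1 and Eif3k were lower and Eif4g1 and Eif3a higher. The length of run was chosen after the sequences were seen, and the absence of a run says only that these letters are not in this window.

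Among 25 regulators of initiation, 3 were higher by at least 1.5-fold in the knockout-labelled library and 2 lower, where 6.11% and 6.13% of all genes were. The median was 0.11, or 0.01 after centring on length. Larp1, whose product binds mRNAs with the oligopyrimidine tract, was listed at 88.9 FPKM in the knockout-labelled and 43.0 FPKM in the wild type library, a ratio of 2.07 (1.99 to 2.15), and it was 2-fold higher where no initiation factor gene was. Ppp1r15b, for the constitutive partner of the phosphatase that removes phosphate from eIF2 alpha, stood at 29.3 and 15.9 FPKM. Its stress-induced relative Ppp1r15a, named after its value was seen, stood at 75.1 and 115 FPKM, so the genes for the 2 partners differed in opposite directions. Pdcd4, an inhibitor of eIF4A, was listed at 144 FPKM in the knockout-labelled and 83.8 FPKM in the wild type library, a ratio of 1.72 (1.64 to 1.81). Paip2, an inhibitor of the poly(A)-binding protein, stood at 112 and 175 FPKM. After centring on length Larp1 stood at 0.79, Pdcd4 at 0.83 and Ppp1r15b at 0.66, all still past 1.5-fold, while Paip2 (−0.51) and Ppp1r15a (−0.57) were not. The 4 kinases of eIF2 alpha, which the symbol rule left out, were all within 1.5-fold, among them Eif2ak1, the heme-regulated kinase, at 41.3 and 39.2 FPKM, and Eif2ak3, the kinase of the endoplasmic reticulum, at 8.31 and 6.21 FPKM. Mtor itself was listed at 9.14 FPKM in the knockout-labelled and 8.28 FPKM in the wild type library.

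Of 13 accessory initiation factor genes 1 was at least 1.5-fold higher, where 6.11% of all genes were, and none lower, with a median of 0.13. After centring on length none was past 1.5-fold and the median was 0.24. The higher gene was Abce1, for the ribosome recycling ATPase, at 72.7 FPKM in the knockout-labelled and 46.3 FPKM in the wild type library. The helicase gene Ddx3x stood at 143 and 97.2 FPKM, and Pabpc1, for the poly(A)-binding protein that contacts eIF4G, at 1442 and 1042 FPKM. Denr, for a factor that releases tRNA from the small subunit, went the other way, at 46.0 and 63.5 FPKM. Of 19 elongation and termination factor genes 1 was at least 1.5-fold lower, where 6.13% of all genes were, and none higher. The median was −0.06, and after centring on length it was 0.03 with no gene past 1.5-fold. The lower gene was Eef1b2, which encodes a subunit of the elongation exchange factor, at 338 FPKM in the knockout-labelled and 530.0 FPKM in the wild type library. The termination factor genes Etf1 (56.1 and 39.1 FPKM in the knockout-labelled and the wild type library) and Gspt1 (39.7 and 28.3 FPKM) lay within 1.5-fold, as did Gspt2 (4.50 and 6.56 FPKM).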

How the data were processed

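RNA of 2 libraries, 1 per genotype, was sequenced on a BGISEQ-500, per the labels. The authors deposited an FPKM value and a transcript length per Entrez gene, and genes under 0.01 FPKM were not listed and were taken as 0. The submitters' processing notes name HISAT, HISAT2, RSEM and mm9, without versions. Symbols came from a RefSeq table of GRCm38.p6 (17169 of 17216 identifiers matched), and GC content of all 51 members from GENCODE M21 transcripts. Library depth came from the spacing of low values in short single-transcript genes, of which 88.4% (285 values, knockout-labelled) and 85.5% (297 values, wild type) lay within 0.15 of a whole read, with step and offset chosen on the same values. Members that averaged 1 FPKM or more had about 38 to 23553 reads. The pseudocount was 1 FPKM. The fit of library depth was tried on simulated data, made of whole reads with a known step. That trial does not cover the deposited values that were not near a whole read. The members and lists were chosen with earlier results of these data known. Values are given for every member, with ratios mainly for those at least 1.5-fold apart, the 6 largest differences in each direction, the most abundant of each role and paralogs, and for up to 4 genes of each other list by difference, plus a few named for their role or after their values were seen. Some members overlap other genes in the annotation (Eif5b and Rev1, Eif5a and Gps2, Eif2a and Serp1, Eif4a2 and Rfc4, Eif3j1 and Spg11, Eif1ad and Banf1, Eif2d and Rassf5, Eif4enif1 and Sfi1, Eif3m and Ccdc73). Whether counting used strand is not stated, so reads from bases that a pair shares may not be told apart. How much of each transcript is shared was not measured. Tools were scipy 1.17.1, pandas 2.3.3, numpy 2.4.6 and matplotlib 3.10.9 under Python 3.11.15.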

Additional observations from a re-analysis of the deposited data

How the results depend on the processing

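The median over the members (0.04) stayed above 0 under each alternative run. It was 0.23 with equal FPKM sums (0.18 over all genes), 0.075 after centring on length, 0.016 with equal upper quartiles, 0.031 with TMM factors, 0.0044 after centring on GC content and 0.021 without near-identical copies. The count at least 1.5-fold lower (3) became 0 with equal FPKM sums and 0 after centring on length, where 3.31% and 4.45% of all genes were. It became 2 with a pseudocount of 5 FPKM and 2 after centring on GC content, where 2.69% and 5.76% of all genes were. The count at least 1.5-fold higher (2) became 8 with equal FPKM sums, where 12.3% of all genes were. It became 1 with equal upper quartiles (5.39% of all genes) and 1 after centring on length (5% of all genes). With a pseudocount of 0.1 FPKM it became 3, as Eif3j2 joined (8.29% of all genes). After centring on GC content it stayed at 2, with Eif4g1 in place of Eif3a (5.31% of all genes). Of 48 members 30 kept their sign in every setting, 20 above and 10 below 0. Of the 11 role medians, those of eIF4G, eIF2, eIF2B, eIF4A, the 4E-binding proteins and the group of eIF5, eIF5B and eIF6 kept their sign in 9 of 9 settings. No paired analysis was possible because each genotype had 1 library, and for the same reason no replicate could be left out. Depth does not limit the abundant members, whose intervals are narrow, but Eif4ebp3 and Eif3j2 rest on few reads.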

Other observations

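Other genes with an X-linked and a Y-linked copy were examined after the Eif2s3x values were seen. Kdm5c, an X-linked histone demethylase gene, was listed at 18.5 FPKM in the knockout-labelled and 12.4 FPKM in the wild type library, and its Y-linked copy Kdm5d at 2.10 and 6.66 FPKM. Their sum was 20.6 FPKM in the knockout-labelled and 19.1 FPKM in the wild type library, a ratio of 1.08 (1.02 to 1.13). For Ddx3x and Ddx3y, genes of an RNA helicase that takes part in initiation, the sum was 148 FPKM in the knockout-labelled and 111 FPKM in the wild type library, a ratio of 1.34 (1.30 to 1.38). For Kdm6a and Uty the sum was 14.8 and 12.0 FPKM, a ratio of 1.23 (1.13 to 1.34). Usp9x, an X-linked deubiquitinase gene, stood at 19.2 FPKM in the knockout-labelled and 11.03 FPKM in the wild type library, a ratio of 1.74 (1.65 to 1.84), while its Y-linked copy Usp9y was listed in neither. All 5 X-linked genes of these pairs, Eif2s3x included, were higher in the knockout-labelled library, where 50.8% of all genes were. Eif2s3x and Ddx3x have transcripts over 3000 bases, and 3573 of 5125 genes of that length outside the initiation factors were above 0. The 4 Y-linked copies that were listed were lower, where 49% of all genes were. The X-linked member Eif1ax, not among these pairs, stood at 102 FPKM in the knockout-labelled and 105 FPKM in the wild type library.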
